A study of Homo sapiens with 24 samples.

Results

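Mitomycin C (MMC) is a prodrug that crosslinks DNA only after reduction. The 10 genes described here encode 6 enzymes listed as possible MMC reductases and 4 pumps that carry drugs out of cells. Whether their products reduce or export MMC in these cells was not tested. The reductases were NQO1, NQO2, POR, CYB5R3, CYB5R1 and XDH, and the efflux pumps were ABCB1, ABCC1, ABCC2 and ABCG2. They were chosen by name from knowledge of the drug, and all 10 were found among the 58381 gene IDs of the count table and passed the filter on low counts that left 20820 genes for testing. A gene could pass that filter through the lines in which it is high, as ABCB1 and XDH did.

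Messenger RNA was sequenced from MMC-treated and untreated cultures of 4 established lines of human bladder cancer cells, named T24, 5637, TCC-SUP and CLS-439. Treated cells were exposed to 75 µM MMC for 1 h on the day after plating, and their RNA was collected 15 h after the drug. The labels name no agent for the untreated cells. Each of the 8 groups had 3 libraries, numbered 1, 3 and 4 and described by the submitters as biological replicates, so that p-values measure the spread between these libraries alone. Each line stands for a single tumour, and RNA was measured in bulk, so fewer cells that transcribe a gene and less RNA per cell cannot be told apart.

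Reduction of MMC opens the ring that alkylates DNA. NQO1, a cytosolic quinone reductase, transfers a pair of electrons to its substrate at once, whereas POR, the partner of microsomal cytochromes P450, and the cytochrome b5 reductase CYB5R3 transfer a single electron, which yields a semiquinone that oxygen can turn back into the parent drug. XDH, which completes purine breakdown to uric acid, has also been described as an MMC reductase, NQO2 is a quinone reductase that prefers dihydronicotinamide riboside as its electron donor, and CYB5R1 is a membrane-bound relative of CYB5R3. ABCB1 (P-glycoprotein), ABCC1 and ABCC2 (multidrug resistance proteins) and ABCG2 (breast cancer resistance protein) use ATP to export drugs or their conjugates.

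Counted reads per library ranged from 13791428 to 28821665. The CLS-439 libraries stood apart from the others: mitochondrially encoded genes held 0.0238 to 0.0283% of their reads, against 3.21 to 7.40% in the other 18 libraries, and the share of processed pseudogenes was 2.75 to 3.05%, against no more than 0.228%. Their part in the results of this line was not tested. The labels give human for every line, but whether the RNA of CLS-439 fits the human reference was not tested, which bears on each level, response and difference given for it. Treated replicate 1 had moved less from the untreated mean than treated replicates 3 and 4 in TCC-SUP, with a median absolute log2 shift of 0.27 against 0.44 and 0.38, and in 5637, with 0.35 against 0.46 and 0.44. In T24 the shifts were 0.43, 0.45 and 0.42 for treated replicates 1, 3 and 4, and in CLS-439 they were 0.22, 0.20 and 0.19. Results that rest on these libraries are given with and without them. Of 12 urothelial and epithelial markers, 7, 10, 9 and 7 had at least 1 CPM (counts scaled to a common library size) in untreated T24, 5637, TCC-SUP and CLS-439, and UPK2 and UPK3A, which encode uroplakins of the mature urothelium, were under 1 CPM in every line.

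Promoter windows from RefSeq (GRCh38.p14), running from 250 bases before to 50 after an annotated start, were found for 7 of the 10 genes. NQO1, NQO2, XDH and ABCB1 are shown because ABCB1 and XDH had the widest range of levels between the lines, and NQO1 and NQO2 are related quinone reductases with calls in different lines. Both strands were searched for a CCAAT box (CCAAT), a GC box (GGGCGG) and the core of the antioxidant response element bound by NRF2 (TGACNNNGC), and matches are in capitals. These motifs occur in 34.6%, 45.0% and 13.3% of all 35116 such windows. The NQO1 window (chr16:69726511-69726810, minus strand) holds 3 GC boxes.
NQO1: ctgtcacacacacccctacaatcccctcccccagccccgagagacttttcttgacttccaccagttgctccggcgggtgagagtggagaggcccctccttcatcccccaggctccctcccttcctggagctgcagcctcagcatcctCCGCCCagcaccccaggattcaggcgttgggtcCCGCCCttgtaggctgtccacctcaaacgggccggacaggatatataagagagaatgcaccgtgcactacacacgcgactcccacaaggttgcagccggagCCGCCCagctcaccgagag
The NQO2 window (chr6:2999644-2999943, plus strand) holds 11 GC boxes, some of which overlap each other.
NQO2: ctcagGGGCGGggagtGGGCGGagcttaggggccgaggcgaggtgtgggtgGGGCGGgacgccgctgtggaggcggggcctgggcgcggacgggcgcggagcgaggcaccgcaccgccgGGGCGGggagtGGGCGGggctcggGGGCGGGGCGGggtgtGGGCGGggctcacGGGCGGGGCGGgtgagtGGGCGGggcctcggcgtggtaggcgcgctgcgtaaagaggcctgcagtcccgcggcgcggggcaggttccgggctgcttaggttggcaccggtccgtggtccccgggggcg
The XDH window (chr2:31414693-31414992, minus strand) holds 2 CCAAT boxes and 1 antioxidant response element core.
XDH: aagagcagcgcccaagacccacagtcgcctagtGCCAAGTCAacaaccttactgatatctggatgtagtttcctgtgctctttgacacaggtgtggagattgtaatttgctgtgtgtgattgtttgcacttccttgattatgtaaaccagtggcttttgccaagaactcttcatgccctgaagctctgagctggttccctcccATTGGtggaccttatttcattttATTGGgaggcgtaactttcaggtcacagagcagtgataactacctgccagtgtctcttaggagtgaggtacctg
Of 2 windows for ABCB1, the one at chr7:87600835-87601134 on the minus strand holds 2 CCAAT boxes.
ABCB1: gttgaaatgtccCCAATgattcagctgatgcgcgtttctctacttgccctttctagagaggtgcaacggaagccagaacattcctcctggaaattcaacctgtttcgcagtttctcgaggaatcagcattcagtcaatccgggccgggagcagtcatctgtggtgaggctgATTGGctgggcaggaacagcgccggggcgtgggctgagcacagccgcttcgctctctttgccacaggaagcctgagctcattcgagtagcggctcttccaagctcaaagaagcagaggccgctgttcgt
A match describes letters in the window and not binding. Sequence beyond the windows was not searched, so a motif absent here may lie further upstream, as for the antioxidant response element and NQO1.

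On a scale per length (FPKM, CPM per kilobase of exon), NQO1 transcripts were the most abundant of the 10, with a median of 112 FPKM over the 24 libraries. CYB5R3 followed at 45.1, ABCC1 at 17.8, POR at 12.0 and CYB5R1 at 6.33 FPKM. XDH had 3.18, NQO2 2.22, ABCG2 1.09, ABCB1 0.907 and ABCC2 0.186 FPKM. This order of medians did not hold within each line: untreated 5637 had 19.5 FPKM of XDH, 18.1 of ABCC1 and 10.2 of POR, untreated TCC-SUP had 10.2 FPKM of ABCG2, and untreated T24 had 4.37 FPKM of ABCB1. NQO1 made up 48.1 to 80.4% of the summed FPKM of the 6 reductases in each library, and ABCC1 made up 48.7 to 92.6% of that of the 4 pumps.

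**Figure D1:**
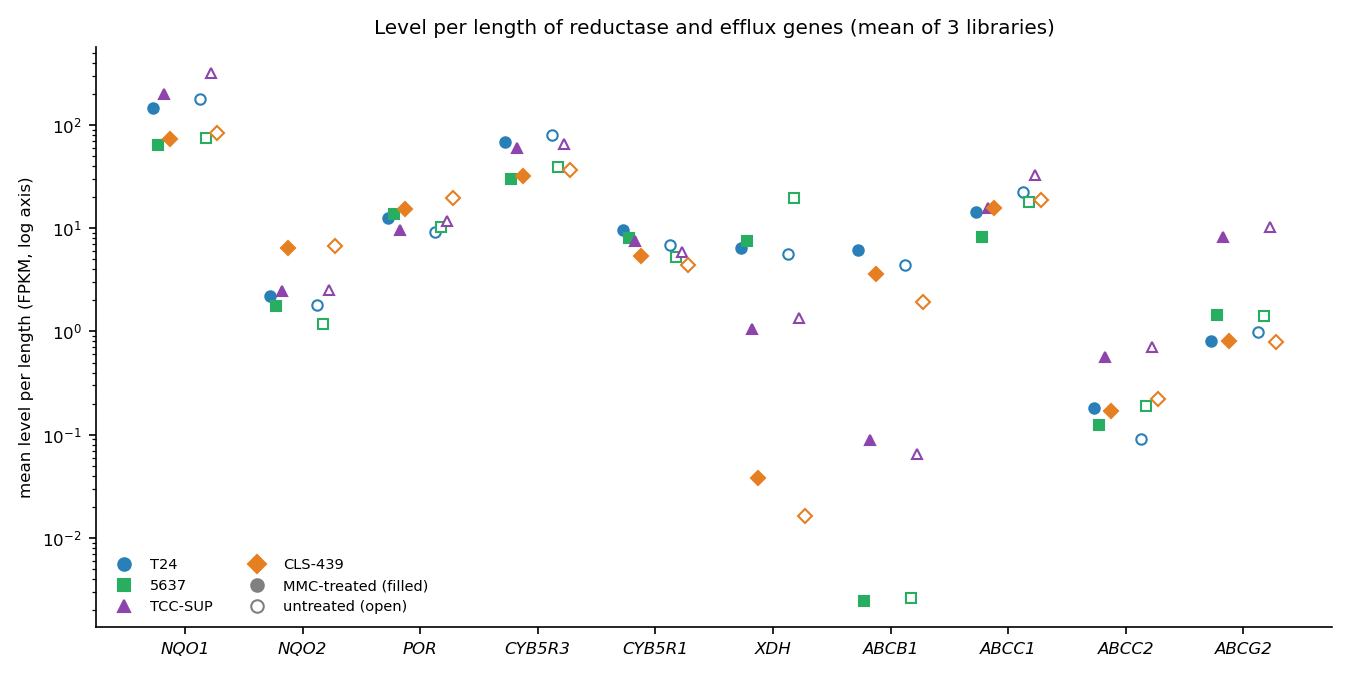
Mean FPKM of 3 libraries on a log axis for each of the 10 genes, by line (colour and shape), with MMC-treated groups filled and left of the open untreated ones. NQO1 and CYB5R3 sit at the top, with medians over 24 libraries of 112 and 45.1 FPKM, and XDH and ABCB1 spread most between the lines.

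The untreated lines differed in the levels of single pumps and reductases. In CPM, which compares 1 gene across libraries, ABCB1 (chromosome 7, 87503633 to 87713323) averaged 25.4 ± 2.40 in untreated T24, 11.1 ± 1.06 in CLS-439 and 0.376 ± 0.0746 in TCC-SUP (SD, n = 3 each), and a single read was counted in the 3 untreated 5637 libraries together. Every step of that order passed the test. ABCG2 (chromosome 4, 88090264 to 88231322) was highest in TCC-SUP, at 51.7 ± 4.82 CPM, against 7.11 ± 0.549 in 5637, 4.98 ± 0.279 in T24 and 4.01 ± 0.622 in CLS-439 (SD, n = 3 each). The step between 5637 and T24 passed narrowly for ABCG2 (T24 minus 5637: adjusted p = 0.0454), and was lost with RLE scaling (0.0502), with no filter (0.14), without the CLS-439 libraries (0.0602) and without replicate 1, 3 or 4 of every group (0.0599, 0.111 and 0.244). T24 and CLS-439 were not separated for ABCG2, with a log2 difference of 0.31 and a 95% interval of -0.13 to 0.75. ABCC1 (chromosome 16, 15949577 to 16143074) varied least among the pumps, with 248 ± 20.9 CPM in TCC-SUP, 169 ± 16.2 in T24, 142 ± 16.1 in CLS-439 and 137 ± 3.79 in 5637 (SD, n = 3 each). TCC-SUP exceeded 5637 (5637 minus TCC-SUP: log2 difference -0.85, SE 0.29, adjusted p = 0.0132) and CLS-439 (0.80, SE 0.28, adjusted p = 0.0138), and no neighbours in the order were separated. Both ABCC1 differences were lost without replicate 4 of every group (adjusted p = 0.142 and 0.136). The neighbours TCC-SUP and T24 were separated with no filter (adjusted p = 0.00408) and without replicate 1 of every group (0.0104). ABCC2 (chromosome 10, 99782640 to 99852594) was low everywhere, at 5.50 ± 1.51 CPM in TCC-SUP, 1.75 ± 0.130 in CLS-439, 1.48 ± 0.226 in 5637 and 0.707 ± 0.118 in T24 (SD, n = 3 each), and 5637 and CLS-439 were not separated (adjusted p = 0.518).

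Among the reductases, XDH (chromosome 2, 31334321 to 31414715) spanned the widest range. It averaged 117 ± 6.41 CPM in untreated 5637, 34.0 ± 5.29 in T24 and 8.11 ± 4.78 in TCC-SUP (SD, n = 3 each), and 6 reads were counted in the 3 untreated CLS-439 libraries together. NQO1 (chromosome 16, 69706996 to 69726951) had 1027 ± 213 CPM in TCC-SUP, 579 ± 39.9 in T24, 270.2 ± 23.2 in CLS-439 and 245 ± 12.0 in 5637 (SD, n = 3 each), of which only 5637 and CLS-439 were not separated (log2 difference -0.14, 95% interval -0.40 to 0.12). NQO2 (chromosome 6, 2987987 to 3028869) ran in another order, with 77.0 ± 2.77 CPM in CLS-439, 28.98 ± 4.86 in TCC-SUP, 21.1 ± 2.48 in T24 and 13.6 ± 1.05 in 5637 (SD, n = 3 each), and each step passed the test. The NQO2 step between TCC-SUP and T24 was lost with no filter (adjusted p = 0.0666) and without replicate 4 of every group (0.283).

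POR (chromosome 7, 75899200 to 75986855) was highest in CLS-439 at 119.6 ± 5.63 CPM, against 72.1 ± 7.40 in TCC-SUP, 62.6 ± 6.04 in 5637 and 55.5 ± 3.73 in T24 (SD, n = 3 each). The neighbours TCC-SUP and 5637 (adjusted p = 0.237) and 5637 and T24 (adjusted p = 0.347) were not separated. CYB5R3 (chromosome 22, 42617840 to 42649568) had 478 ± 55.3 CPM in T24, 391 ± 21.5 in TCC-SUP, 234 ± 11.8 in 5637 and 217 ± 13.3 in CLS-439 (SD, n = 3 each), and only the step between TCC-SUP and 5637 passed the test (5637 minus TCC-SUP: log2 difference -0.74, SE 0.17, adjusted p = 0.000451). CYB5R1 (chromosome 1, 202961869 to 202967280) ranged least of the 10, with means of 30.8 CPM in T24, 26.3 in TCC-SUP, 23.7 in 5637 and 19.7 in CLS-439, and none of its 3 neighbouring steps passed (adjusted p = 0.131, 0.324 and 0.0562). For NQO1, NQO2 and POR the counts are uncertain to the extent that overlapping genes share exons: the strand setting of the counting is not given in the sources used here, and stretches of up to 347 bases of NQO1, 631 of NQO2 and 73 of POR are also exonic in another gene.

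Of the 10 genes, 8 differed between untreated T24 and 5637, 7 between T24 and TCC-SUP, 8 between T24 and CLS-439, 8 between 5637 and TCC-SUP, 5 between 5637 and CLS-439 and 10 between TCC-SUP and CLS-439. Over all tested genes the shares called in the same pairs were 46.6%, 51.3%, 72.3%, 56.6%, 73.7% and 77%. Most genes differed between most pairs of lines, so these counts are not particular to the 10 genes.

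**Figure D2:**
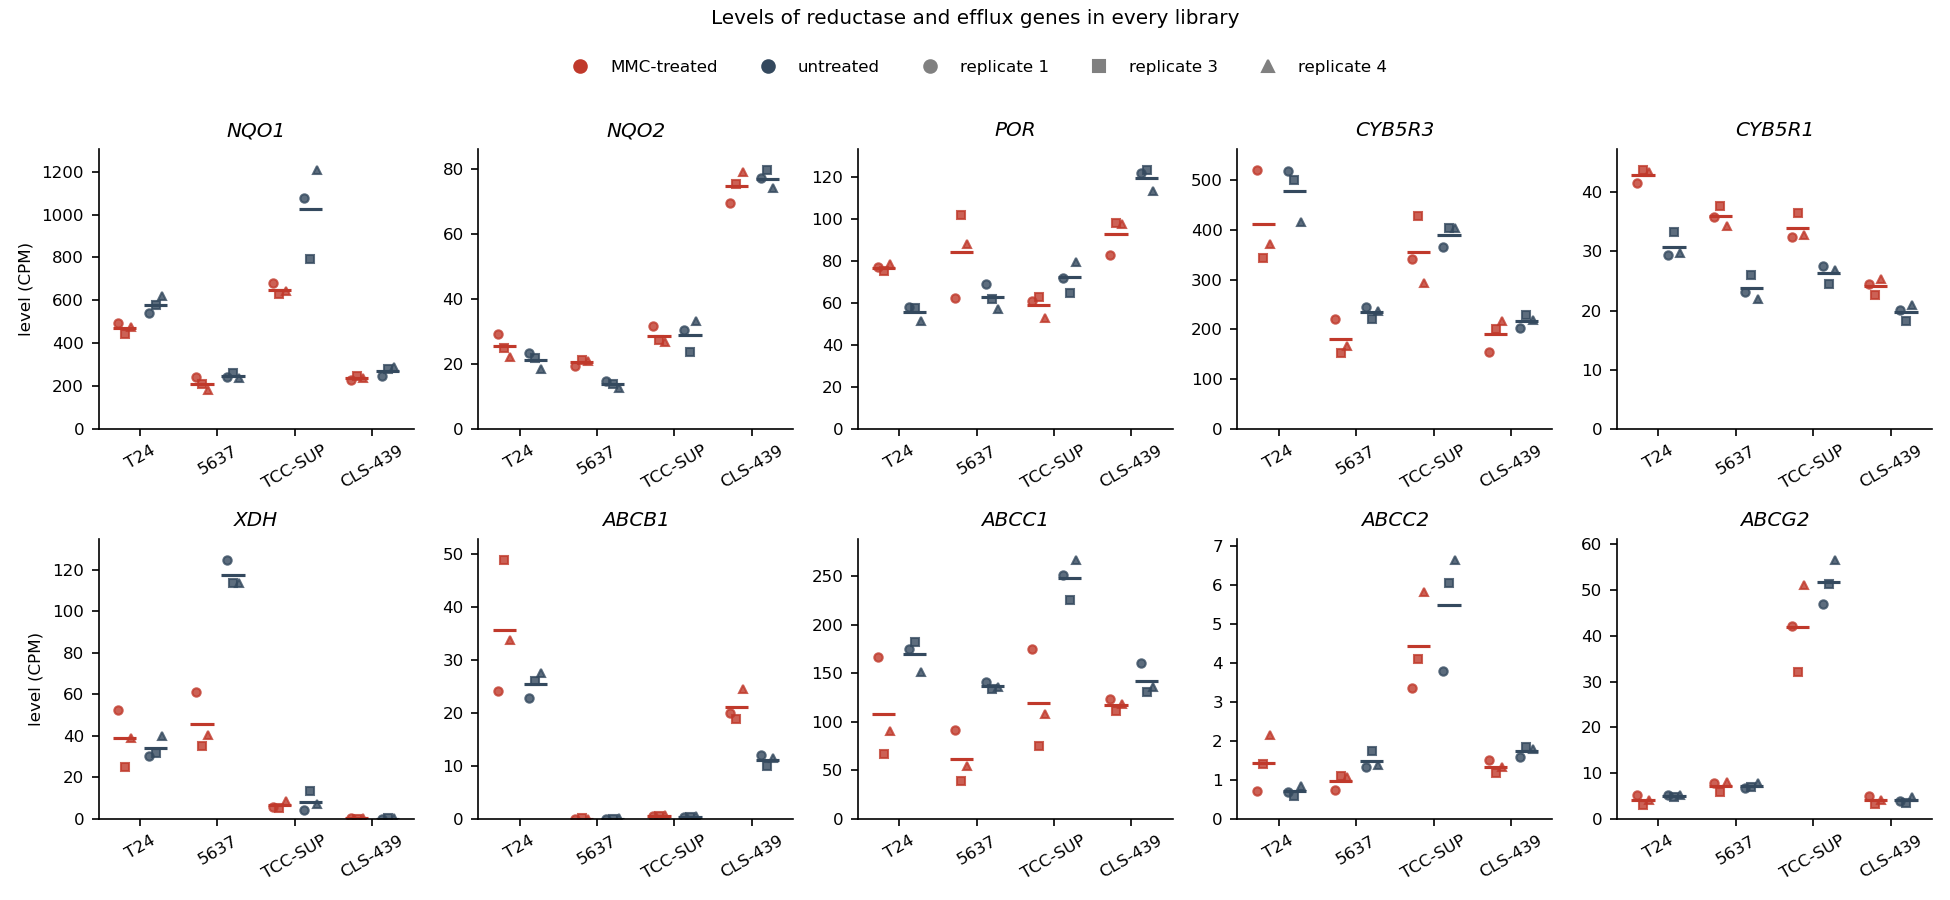
CPM of each of the 10 genes in MMC-treated (red) and untreated (dark) libraries of the 4 lines, on a linear axis from 0 of its own for each gene. Each point is 1 library, its shape the replicate number and the line the mean of 3. ABCB1 is near 0 in 5637 and TCC-SUP, XDH is near 0 in CLS-439, and ABCG2 is highest in TCC-SUP, at 51.7 CPM in untreated cells.

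The drug response was asked of each line separately. In T24, POR, CYB5R1 and ABCC2 rose, which is 3 of 10 beside 15.2% of all tested genes called higher. None of the 10 was called lower by DESeq2, or by edgeR with the filter and no replicate block, beside 13.4% of all genes. ABCC1 was called lower by edgeR with no filter or with the block. At an unadjusted p under 0.05, 2 were lower (NQO1 and ABCC1). In 5637, NQO2, POR and CYB5R1 rose and XDH and ABCC1 fell, 3 and 2 of 10 beside 15.9% and 13.6% of all genes. In TCC-SUP, CYB5R1 rose and NQO1 and ABCC1 fell, 1 and 2 of 10 beside 9.57% and 11.1%. In CLS-439, ABCB1 rose, 1 of 10 beside 0.298% of all genes. None was called lower there by edgeR or DESeq2 over all 24 libraries, beside 0.322%, with 1 lower at an unadjusted p under 0.05. The median log2 fold change of the 10 genes was 0.23 for T24, -0.13 for 5637, -0.30 for TCC-SUP and -0.12 for CLS-439, where the median of all tested genes was 0. Below, groups that do not overlap are a description and not a test. The share of all tested genes with such groups was not computed.

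**Figure D3:**
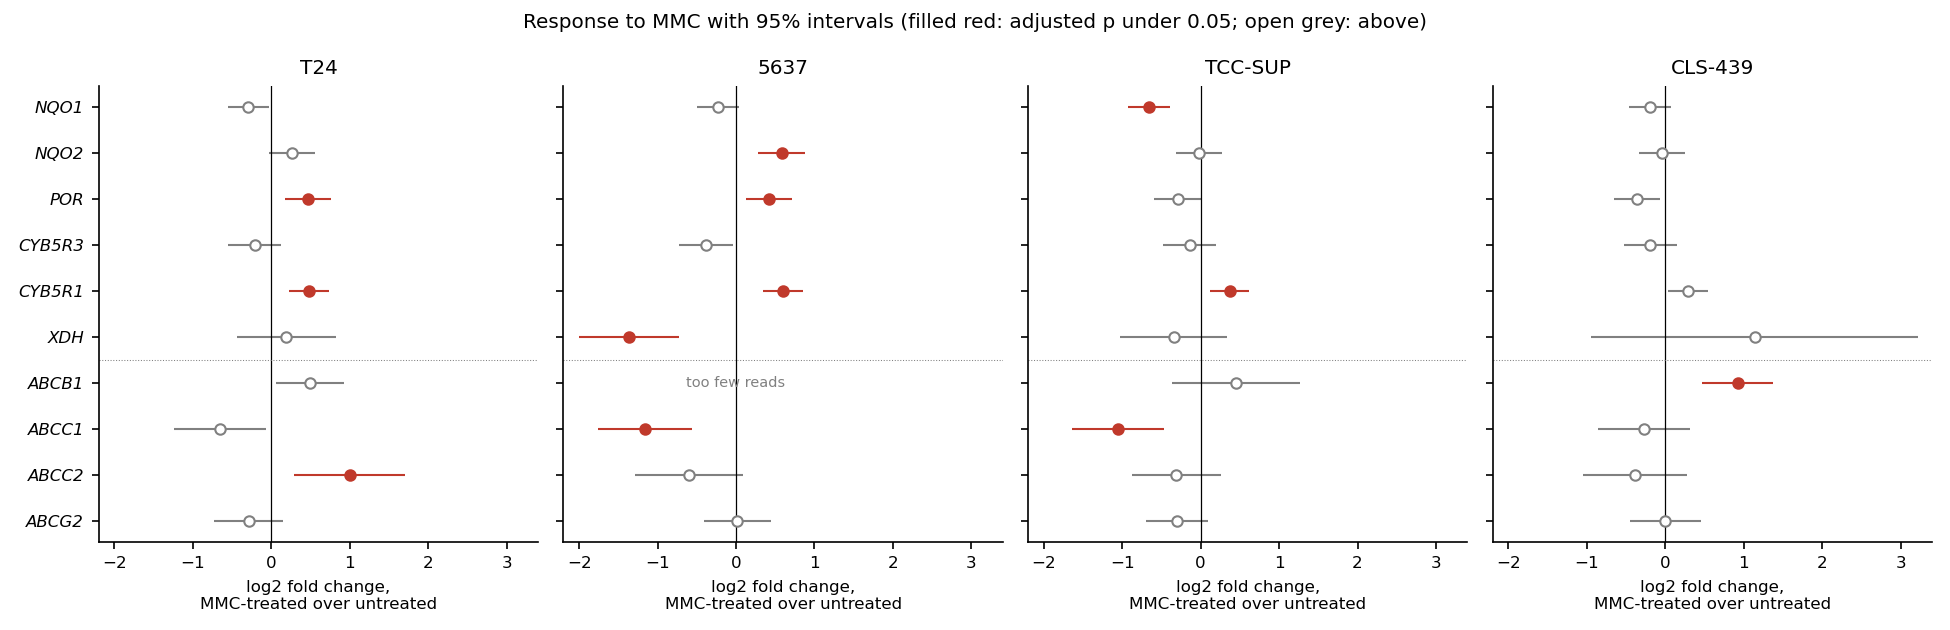
Log2 fold change, MMC-treated over untreated, of each gene in each line, with 95% intervals, filled red at an adjusted p under 0.05 and open grey otherwise. ABCB1 in 5637 is left out for its low reads. CYB5R1 lies above 0 in all 4 lines, between 0.29 and 0.60, and ABCC1 lies below 0 in all 4, between -1.16 and -0.27, and was called in 5637 and TCC-SUP.

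NQO1 fell in TCC-SUP, the line with most of it. It had 678, 629 and 642 CPM in the 3 treated TCC-SUP libraries (replicates 1, 3 and 4), against 1079, 792 and 1209 CPM in the untreated ones. The groups did not overlap, and the log2 fold change was -0.66 (SE 0.13, adjusted p = 0.000805). In T24 the values were 495, 442 and 477 CPM in treated cells and 540.4, 575 and 620.1 CPM in untreated cells, which did not overlap either, but the change of -0.30 did not pass (95% interval -0.56 to -0.03, adjusted p = 0.0869). In 5637 the mean was 209 ± 28.7 CPM in treated and 245 ± 12.0 CPM in untreated cells (SD, n = 3 each, log2 fold change -0.23, adjusted p = 0.195). Without treated replicate 1, where NQO1 stood at 239 CPM, the change in 5637 was -0.37 (adjusted p = 0.0397). In CLS-439 it averaged 236 ± 7.73 CPM in treated and 270.2 ± 23.2 CPM in untreated cells (SD, n = 3 each, adjusted p = 0.839). A difference of the NQO1 response among the lines did not pass (adjusted p = 0.181).

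NQO2, a relative of NQO1, rose in 5637. Treated 5637 cells had 19.3, 21.2 and 20.7 CPM, against 14.6, 13.7 and 12.5 CPM in untreated 5637 cells. Every treated library lay above every untreated one (log2 fold change 0.58, SE 0.15, adjusted p = 0.00394). The call was lost without replicate 3 (0.55, adjusted p = 0.0809) or replicate 4 (0.50, adjusted p = 0.126) of every group. The change was 0.27 in T24 (95% interval -0.03 to 0.56), -0.02 in TCC-SUP (-0.32 to 0.27) and -0.05 in CLS-439 (-0.34 to 0.25), and a difference of the NQO2 response among the lines did not pass (adjusted p = 0.0806). DESeq2 gave 0.0131 for that difference.

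POR, the electron source of microsomal P450 enzymes, responded differently among the lines (adjusted p = 0.00462, beside 16% of all tested genes called). It had 77.0, 75.1 and 78.4 CPM in treated T24, against 58.0, 57.4 and 51.2 CPM in untreated T24. These groups lay clear of each other, at a log2 fold change of 0.47 (adjusted p = 0.0155). Without untreated replicate 4 of T24 the call was lost (0.41, adjusted p = 0.0684). It was also lost with no filter (adjusted p = 0.0584) and without replicate 3 (0.0888) or replicate 4 (0.304) of every group. Treated 5637 had 62.4, 102 and 88.1 CPM, against 69.1, 61.8 and 57.1 CPM in untreated 5637. Treated replicate 1 fell within the untreated range, and the change of 0.43 (SE 0.14, adjusted p = 0.0263) was lost without treated replicate 3 (0.26, adjusted p = 0.225), treated replicate 4 (0.39, adjusted p = 0.0869), untreated replicate 3 (0.39, adjusted p = 0.092) or untreated replicate 4 (0.34, adjusted p = 0.133).

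In the other lines POR lay lower after the drug without passing. Treated TCC-SUP had 61.1, 62.7 and 52.7 CPM, against 71.8, 64.9 and 79.7 CPM in untreated TCC-SUP (log2 fold change -0.29, adjusted p = 0.152). Treated CLS-439 had 82.8, 98.1 and 97.5 CPM, against 122, 123 and 113 CPM in untreated CLS-439 (-0.37, adjusted p = 0.437). In both lines the groups did not overlap. The response of T24 exceeded that of TCC-SUP by 0.76 (SE 0.20, adjusted p = 0.0327) and that of CLS-439 by 0.83 (adjusted p = 0.00933), and the response of 5637 exceeded that of CLS-439 by 0.79 (adjusted p = 0.0138). POR was the gene called for T24 against TCC-SUP, T24 against CLS-439 and 5637 against CLS-439, 1 of 10 beside 3.79%, 10.1% and 9.02% of all genes. Over T24, 5637 and TCC-SUP alone, the difference among lines did not pass (adjusted p = 0.0554).

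CYB5R1 rose in 3 of 4 lines. It had 41.6, 43.8 and 43.4 CPM in treated T24, against 29.4, 33.2 and 29.7 CPM in untreated T24 (log2 fold change 0.48, SE 0.12, adjusted p = 0.00429). Treated 5637 had 35.8, 37.8 and 34.3 CPM, against 23.2, 26.1 and 22.0 CPM in untreated 5637 (0.60, SE 0.12, adjusted p = 0.000638). Treated TCC-SUP had 32.4, 36.6 and 32.9 CPM, against 27.6, 24.4 and 26.9 CPM in untreated TCC-SUP (0.37, SE 0.12, adjusted p = 0.0343). The treated libraries lay above all untreated ones in each of these lines. They did so in CLS-439 too, with 24.5, 22.6 and 25.4 CPM in treated and 20.1, 18.2 and 20.9 CPM in untreated cells, where the change of 0.29 did not pass (95% interval 0.04 to 0.55, adjusted p = 0.528). The TCC-SUP call was lost on leaving out untreated replicate 1, 3 or 4 (adjusted p = 0.0735, 0.153 and 0.0784) or treated replicate 3 or 4 (0.154 and 0.0589), without the CLS-439 libraries (0.0587), with the line alone (0.0744) and with no filter (0.318). The T24 call was lost with no filter (adjusted p = 0.103) and without replicate 3 (0.0564) or replicate 4 (0.209) of every group, and the 5637 call without replicate 4 of every group (0.0802). A difference of the CYB5R1 response among the lines did not pass (adjusted p = 0.532).

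CYB5R3, the more abundant of the cytochrome b5 reductases, was not called in any line with all libraries, the filter on low counts and no replicate block. Its log2 fold changes were -0.21 for T24, -0.38 for 5637, -0.14 for TCC-SUP and -0.19 for CLS-439 (adjusted p = 0.371, 0.0838, 0.603 and 0.908). In 5637 it had 220.3, 152 and 166 CPM in treated cells, against 245, 222 and 236 CPM in untreated cells, with no overlap. Leaving out treated replicate 1 of 5637 gave -0.59 (adjusted p = 0.00845). The change in 5637 was also called with no filter on low counts (-0.40, adjusted p = 0.0499) and with a replicate block (-0.40, adjusted p = 0.0288).

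XDH fell in 5637, where it was most abundant. Treated 5637 had 61.1, 35.2 and 40.4 CPM, against 125, 114 and 114 CPM in untreated 5637. The groups were far apart, with a log2 fold change of -1.37 (adjusted p = 0.0016). T24 had 52.4, 25.1 and 38.9 CPM in treated and 30.2, 31.8 and 40.0 CPM in untreated cells, and TCC-SUP had 5.56, 5.02 and 8.53 CPM in treated and 4.06, 13.4 and 6.89 CPM in untreated cells. Both pairs of groups overlapped, at 0.19 and -0.34 (adjusted p = 0.719 and 0.506). In CLS-439, 13 reads were counted in treated and 6 in untreated libraries, with a log2 fold change of 1.14 and a 95% interval of -0.94 to 3.22. The XDH response differed among the lines (adjusted p = 0.042) and between T24 and 5637 by 1.55 (SE 0.43, adjusted p = 0.0461), 1 of 10 genes for that pair beside 3.47% of all genes. Over the lines other than CLS-439 the difference among lines did not pass (adjusted p = 0.112).

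Between 5637 and TCC-SUP, and between TCC-SUP and CLS-439, none of the 10 responses differed by edgeR, beside 2.7% and 2.65% of all genes. At an unadjusted p under 0.05 there were 4 and 1. In these pairs POR was the nearest for 5637 against TCC-SUP, at 0.72 (adjusted p = 0.0533).

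ABCC1, the most abundant pump, fell in 5637 and TCC-SUP. Treated 5637 had 91.1, 39.0 and 54.5 CPM, against 141, 134 and 136 CPM in untreated 5637 (log2 fold change -1.16, SE 0.29, adjusted p = 0.0038). Treated TCC-SUP had 175, 75.3 and 107 CPM, against 251, 226 and 267 CPM in untreated TCC-SUP (-1.05, SE 0.29, adjusted p = 0.0108). Neither pair of groups overlapped, and treated replicate 1 was the highest treated library in both lines. In T24 treated replicate 1 stayed among the untreated libraries, with 166, 66.3 and 90.6 CPM in treated and 175, 182 and 151 CPM in untreated cells, and the change of -0.65 did not pass (95% interval -1.24 to -0.07, adjusted p = 0.091). Without treated replicate 1 of T24 it was -1.10 (adjusted p = 0.00642). With all libraries, the T24 change was called with no filter (-0.664, adjusted p = 0.000563) and with a replicate block (-0.755, adjusted p = 0.0304). The TCC-SUP call was lost without treated replicate 3 (-0.81, adjusted p = 0.0899) or treated replicate 4 (-0.98, adjusted p = 0.0533). CLS-439 had 124, 111 and 119 CPM in treated and 161, 131 and 135 CPM in untreated cells, which did not overlap (-0.27, 95% interval -0.86 to 0.31, adjusted p = 0.936). A difference of the ABCC1 response among the lines did not pass (adjusted p = 0.308). That difference passed with no filter (adjusted p = 0.00434) and without replicate 1 of every group (0.00237).

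ABCB1, the P-glycoprotein gene, rose in CLS-439. It had 19.9, 18.8 and 24.5 CPM in treated CLS-439, against 12.0, 9.92 and 11.5 CPM in untreated CLS-439. The groups did not overlap, and the log2 fold change was 0.92 (SE 0.22, adjusted p = 0.0473). The call was lost on leaving out any of the 6 libraries of this line: untreated replicate 1, 3 or 4 (adjusted p = 0.138, 0.267 and 0.179) or treated replicate 1, 3 or 4 (0.0721, 0.0968 and 0.331). T24 had 24.2, 48.9 and 33.8 CPM in treated and 22.8, 25.9 and 27.5 CPM in untreated cells. Treated replicate 1 lay within the untreated range, and the change of 0.49 did not pass (adjusted p = 0.0878). Without that library it was 0.71 (adjusted p = 0.00618). TCC-SUP had 36 reads in treated and 24 in untreated libraries (log2 fold change 0.45, adjusted p = 0.464), and 5637 had 1 read in each group. A difference of the ABCB1 response among the lines did not pass (adjusted p = 0.667).

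ABCC2, a pump of conjugates, rose in T24 on few reads. It had 0.704, 1.41 and 2.14 CPM in treated T24, against 0.697, 0.594 and 0.830 CPM in untreated T24, from 87 and 53 reads. Treated replicate 1 overlapped the untreated libraries, and the log2 fold change was 1.00 (SE 0.34, adjusted p = 0.0306). The call was lost without untreated replicate 1 (adjusted p = 0.0851) or 3 (0.108), without treated replicate 3 (0.0674) or 4 (log2 fold change 0.59, adjusted p = 0.283), and without the CLS-439 libraries (0.0519). The changes of -0.60 for 5637, -0.31 for TCC-SUP and -0.39 for CLS-439 did not pass. A difference of the ABCC2 response among the lines did not pass (adjusted p = 0.0603), whereas it did with DESeq2 (0.0267) and without replicate 1 of every group (0.0115).

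ABCG2 was not called in any line. TCC-SUP, its highest line, had 42.1, 32.2 and 51.2 CPM in treated and 47.0, 51.3 and 56.7 CPM in untreated cells. The groups overlapped (log2 fold change -0.30, 95% interval -0.70 to 0.09, adjusted p = 0.285). The change was -0.29 in T24 (-0.73 to 0.15), 0.02 in 5637 (-0.40 to 0.44) and 0.00 in CLS-439 (-0.45 to 0.46).

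Ratios and sums within a library set these genes side by side. The ratio of NQO1 to POR on the FPKM scale was 12.1, 11.1 and 11.4 in treated T24, against 17.5, 18.8 and 22.7 in untreated T24. It was 7.20, 3.81 and 3.89 in treated 5637, against 6.52, 7.88 and 7.81 in untreated 5637, where treated replicate 1 stayed among the untreated libraries. TCC-SUP had 20.9, 18.9 and 22.89 in treated and 28.2, 22.94 and 28.5 in untreated cells, and CLS-439 had 5.19, 4.68 and 4.53 in treated and 3.76, 4.21 and 4.80 in untreated cells. The groups were thus apart in T24 and, narrowly, in TCC-SUP, and overlapped in the other lines. The summed FPKM of the 4 pumps was 13.7, 6.45 and 8.92 in treated 5637, against 20.1, 19.3 and 19.7 in untreated 5637. It was 32.0, 16.9 and 25.2 in treated TCC-SUP, against 43.0, 40.8 and 47.4 in untreated TCC-SUP. T24 had 27.2, 18.0 and 18.8 in treated and 28.1, 29.5 and 25.8 in untreated cells, and CLS-439 had 20.9, 18.6 and 20.9 in treated and 24.2, 19.9 and 21.0 in untreated cells. The sums of treated and untreated libraries were apart in 5637 and TCC-SUP and overlapped in T24 and CLS-439. With 3 libraries in each group an exact permutation test on such a sum cannot go below p = 0.1, and none was run.

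Long genes were lower after the drug in 3 of the lines, and the 3 longest of the 10 genes did not share a direction. Tested genes that span over 100 kb had a median log2 fold change of -0.35 for T24, -0.40 for 5637, -0.63 for TCC-SUP and -0.06 for CLS-439, against 0.09, 0.13, 0.11 and -0.01 for genes under 20 kb. ABCC1 spans 193.5 kb, and its change stood at percentile 34 of the long genes for T24, 22.3 for 5637, 29.7 for TCC-SUP and 31 for CLS-439. ABCB1, with 209.7 kb, stood at percentile 87.3 in T24, 95.1 in TCC-SUP and 97.5 in CLS-439. ABCG2, with 141.1 kb, stood between percentile 53.1 and 76.7. CYB5R1 spans 5.412 kb, and its rise lay between percentile 65.6 and 84.2 of the genes under 20 kb. The part of gene length in these results was not tested.

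**Figure D4:**
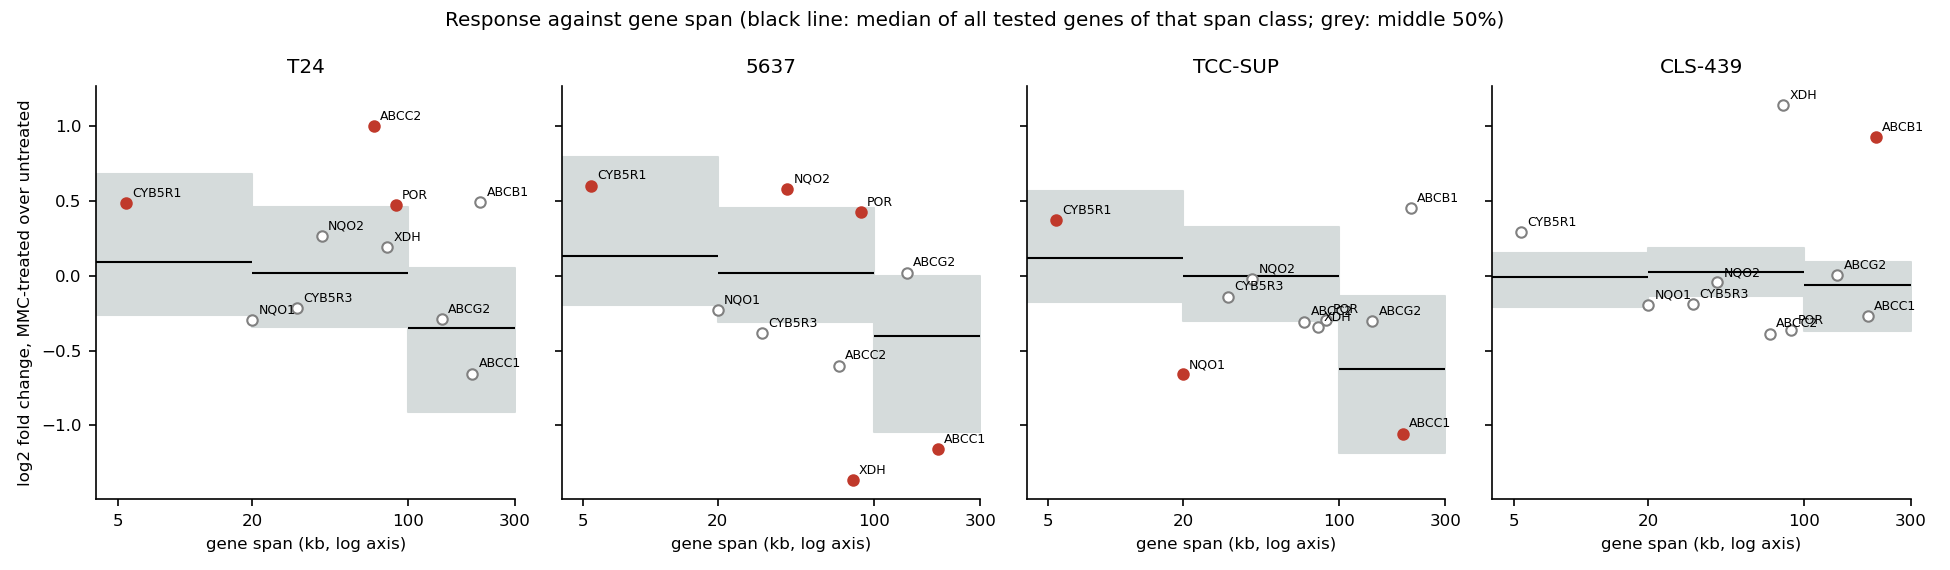
Log2 fold change, MMC-treated over untreated, of the 10 genes in each line against the length each spans in the genome, on a log axis, with the median (line) and the middle 50% (grey) of all tested genes under 20 kb, 20 to 100 kb and over 100 kb. Filled points passed the test, and ABCB1 in 5637 is left out. ABCC1, at 193.5 kb, lies below 0 in every line, and ABCB1, at 209.7 kb, lies above 0 in T24, TCC-SUP and CLS-439.

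Other transporters and reductases were read from lists, and the counts stand beside the shares of all tested genes called: for T24 15.2% higher and 13.4% lower, for 5637 15.9% higher and 13.6% lower, for TCC-SUP 9.57% higher and 11.1% lower, for CLS-439 0.298% higher and 0.322% lower. Of 11 tested ABC drug transporters outside the 4, ABCC3 rose and ABCC4 and MVP fell in T24, ABCC3 and ABCC4 fell in 5637, and ABCC3, ABCC4 and MVP fell in TCC-SUP. ABCC4, a pump of nucleotides and conjugates, fell in T24, 5637 and TCC-SUP, with log2 fold changes of -1.80, -2.22 and -1.53. ABCC3 had log2 fold changes of 0.78 in T24, -0.59 in 5637 and -0.89 in TCC-SUP. The median of the list was -0.17, -0.12 and -0.25 in these lines and -0.19 in CLS-439.

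Of 19 other oxidoreductases and electron carriers, 4 rose and 3 fell in T24 and 5 rose and 2 fell in 5637. In TCC-SUP 3 rose and 2 fell. Besides flavoproteins and their carriers the list holds CRYZ, CBR1, CBR3 and PDIA3, which are neither. In T24 the rises of FDX2 and NOS3 lay under 1 CPM. Treated cells had 0.623 and 0.0816 CPM, against 0.220 and 0 CPM in untreated cells. CYB5R2, a paralogue of CYB5R3, rose by 0.92, 0.97 and 0.65 in T24, 5637 and TCC-SUP and was named after its values were seen. TXNRD1, the cytosolic thioredoxin reductase, fell by 0.99 in TCC-SUP. CRYZ, a quinone reductase also known as zeta-crystallin, fell by 1.24 in T24 and by 0.73 in 5637. Of 13 microsomal enzymes that take electrons from POR, 2 rose and 2 fell in T24, 5 rose and 4 fell in 5637, 2 rose and 1 fell in TCC-SUP, and CYP26B1 rose in CLS-439. The T24 counts are near the 15.2% and 13.4% of all genes called there. In 5637 the rise of CYP3A5 lay under 1 CPM, at 0.318 CPM in treated and 0.0161 CPM in untreated cells. CYP26B1, a retinoic acid hydroxylase, rose by 0.90 for T24, 1.88 for 5637, 0.66 for TCC-SUP and 2.16 for CLS-439, there at 1.10 CPM in treated and 0.249 CPM in untreated cells.

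Regulators and targets of NRF2, the factor that also drives NQO1, were called in both directions. Of 26 NRF2 regulators and targets, 9 rose and 2 fell in T24, 10 rose and 3 fell in 5637, 3 rose and 7 fell in TCC-SUP, and MAFF and AKR1C2 rose in CLS-439. The list median was 0.29 for T24, 0.27 for 5637, -0.16 for TCC-SUP and 0.10 for CLS-439. The list holds regulators as well as targets, and the risers were led by MAFF, a small MAF partner of NRF2 and not a target, in T24 (2.10) and TCC-SUP (1.74), and by OSGIN1, an oxidative stress gene, in 5637 (2.07). AKR1B10, an aldo-keto reductase, fell by 2.02 in TCC-SUP beside HMOX1, heme oxygenase, which is not among its 2 largest falls and was named after its value was seen (-1.12, against 1.62 in 5637). TKT, a pentose phosphate enzyme, fell in T24, 5637 and TCC-SUP (-0.81, -1.05 and -1.17).

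Of 9 genes of xenobiotic receptors and AHR targets, which include further regulators of NQO1, 4 rose in T24, 2 rose and 1 fell in 5637 and 2 fell in TCC-SUP. In T24 the rises of CYP1A1 and CYP1B1 lay under 1 CPM. Treated T24 cells had 0.600 and 0.156 CPM, against 0.204 and 0 CPM in untreated cells. CYP1A1 rose by 1.605 in 5637, to 19.4 CPM in treated cells, against 6.36 CPM in untreated cells. Of 12 genes of purine breakdown and the molybdenum cofactor, which XDH needs, 3 rose and 2 fell in T24, 2 rose and 1 fell in 5637, 2 rose and 2 fell in TCC-SUP, and APRT fell in CLS-439. In 5637 the rise of MOCS1 lay under 1 CPM, at 0.341 CPM in treated and 0.114 CPM in untreated cells. The list median was -0.25 for T24, 0.17 for 5637, 0.05 for TCC-SUP and -0.02 for CLS-439. GPHN, gephyrin, which completes the cofactor, fell in T24, 5637 and TCC-SUP, with log2 fold changes of -1.91, -2.85 and -3.14, and PNP, purine nucleoside phosphorylase, rose by 0.96, 0.91 and 0.94.

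Of 16 genes that remove superoxide and peroxide, SOD2, the mitochondrial superoxide dismutase, rose by 1.78 in T24 and by 1.68 in 5637, and CAT, catalase, fell in T24, 5637 and TCC-SUP (-0.39, -1.17 and -0.67). PRDX6 fell in TCC-SUP. Of 12 glutathione conjugation genes, GSTM3 rose by 0.76 in T24 and by 0.98 in 5637, MGST1 and GSTK1 fell in 5637, and GSTO1 fell in TCC-SUP. The epithelial markers fell in part in the same libraries, with 3, 5 and 4 of 10 tested called lower in T24, 5637 and TCC-SUP, beside 13.4%, 13.6% and 11.1% of all genes. Their summed level was 3223 to 6965 CPM in treated and 5416 to 6984 CPM in untreated T24, and 4130 to 6038 CPM in treated and 6551 to 7652 CPM in untreated 5637. It was 1167 to 2264 CPM in treated and 2108 to 2832 CPM in untreated TCC-SUP, and 1777 to 2316 CPM in treated and 2587 to 2916 CPM in untreated CLS-439. These sums overlapped in T24 and TCC-SUP and were apart in 5637 and CLS-439. Of 8 mesenchymal and fibroblast markers, all at 1 CPM or more in untreated TCC-SUP, CDH2, ZEB1 and COL1A1 were called lower there, and the sum was 2706 to 4003 CPM in treated and 4809 to 6846 CPM in untreated TCC-SUP. Of 5 leukocyte markers, 2 had at least 1 CPM in untreated TCC-SUP, and their sum was 17.4 to 24.6 CPM in treated and 34.7 to 41.8 CPM in untreated cells of that line. The part of these markers in the results was not tested.

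**Figure D5:**
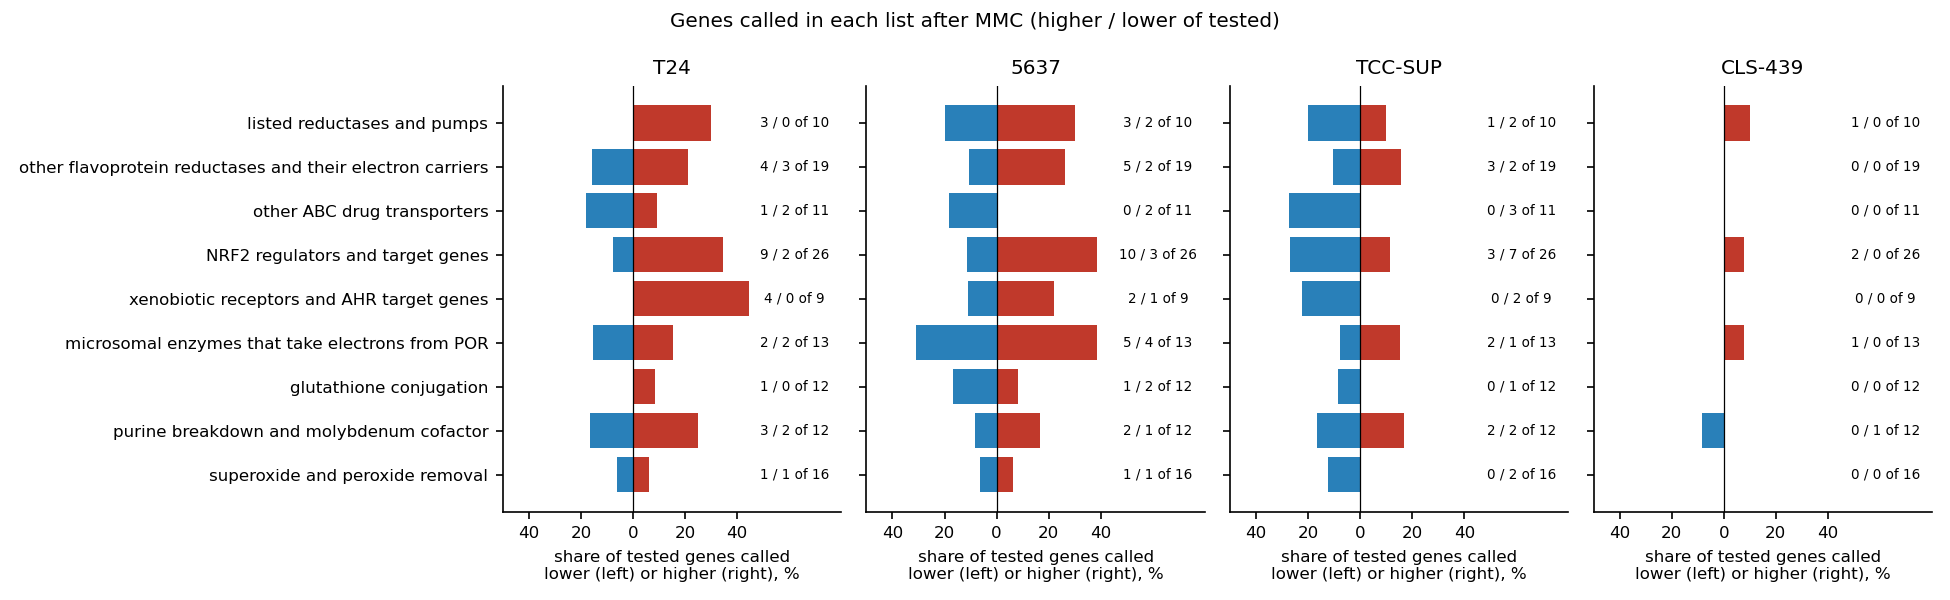
Share of the tested genes of each list called lower (left, blue) or higher (right, red) after MMC in each line, in percent, with the counts beside the bars. The NRF2 list has 9 higher and 2 lower in T24 and 3 higher and 7 lower in TCC-SUP. The list labelled other flavoprotein reductases also holds CRYZ, CBR1, CBR3 and PDIA3, which are not flavoproteins.

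The genes most alike in level over the 24 libraries were found by Pearson's r of log2 CPM among 11426 protein-coding genes at 10 CPM or more in their highest group. NQO1 was followed by QPRT (0.97) and EHD2 (0.97), CYB5R3 by LGALS1 (0.97) and GNAI2 (0.96), XDH by SOX7 (0.98) and FADS2 (0.98), and ABCB1 by CPNE8 (0.98) and MYL9 (0.97). ABCC1 was followed by CTIF (0.98) and NFIC (0.98), and ABCG2 by MGAT3 (0.99) and DPP4 (0.98). The r of POR was lower, at 0.87 with FUCA1 and 0.86 with ID2, and was 0.76 and 0.72 over the 18 libraries without CLS-439. NQO2 had 0.98 with VASH1 and 0.97 with TNNC1, against 0.88 and 0.85 without CLS-439. These values describe 24 libraries that share 4 lines, and hold differences between lines together with those between treated and untreated cells. Their parts were not separated.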

How the data were processed

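MMC-treated and untreated cells of each line gave 3 messenger RNA libraries per group. Per the labels' protocols, RNA was extracted on columns with DNase and made into stranded poly(A) libraries. The treatment tag of the treated samples reads MCC and was taken as MMC, the drug that the protocol names. The values are raw counts of reads for each Ensembl gene, deposited by the authors as a single table. Per the submitters' processing notes, reads were processed with STAR 2.5.3a and featureCounts 1.6.2 on GRCh38. Strand setting, annotation release and the counting of multiply mapped reads: not given in the sources used here.

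Symbols, coordinates and exon lengths came from GENCODE 29 (58216 of 58381 IDs matched, and the other IDs held 0.00717% of reads). The test was that of edgeR 4.0.16 (R 4.3.3): filterByExpr by group (20820 genes, 99.94% of reads), TMM scaling, and a robust quasi-likelihood fit with 8 group means over all 24 libraries (16 residual degrees of freedom, common dispersion 0.0317). Contrasts were MMC against untreated per line, differences of these responses between lines (each pair, and any difference among the 4), and untreated lines in pairs. A call is an adjusted p under 0.05 (Benjamini-Hochberg, over all tested genes). CPM uses TMM library sizes, and FPKM divides it by the union of exons. Intervals are at 95%. Alternatives were DESeq2 1.42.0, RLE scaling, no filter, a replicate block, each line alone, no CLS-439, and libraries left out.

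The listed genes, the further lists and the tests were chosen with earlier results of these data known. All 10 genes are given in every line. From each further list, the 2 called members with the largest rise and the 2 with the largest fall in a line could be named, and for each of the 10 genes the 2 with the highest r. No pair of replicates agreed within sampling noise (lowest chi-square per gene 4.11).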

Additional observations from a re-analysis of the deposited data

Results flagged for a closer look

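The response of POR to MMC differed among the 4 lines in a test of the difference itself (edgeR's quasi-likelihood test, adjusted p = 0.00462), with log2 fold changes of 0.47 for T24, 0.43 for 5637, -0.29 for TCC-SUP and -0.37 for CLS-439. The response of XDH differed among the lines in the same test (adjusted p = 0.042), with log2 fold changes of 0.19 in T24, -1.37 in 5637 and -0.34 in TCC-SUP, and with 13 reads in treated and 6 in untreated CLS-439 cells. The POR call was lost without replicate 3 (adjusted p = 0.0965) or replicate 4 (0.407) of every group and without the CLS-439 libraries (0.0554). The XDH call was lost without replicate 4 of every group (adjusted p = 0.53) and without the CLS-439 libraries (0.112).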

How the results depend on the processing

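Of 573 recomputed responses of single genes, 484 kept direction and side of the threshold, 52 lost and 13 gained a call, and 24 changed sign. Of 390 recomputed differences between untreated lines, 369 kept both, 18 lost and 2 gained a call, and 1 changed sign. Of 80 tests among lines, 69 kept their side, 5 lost and 6 gained a call. RLE scaling changed no count of called genes by over 1.5 times. DESeq2 called 4 genes among lines, against 2 with edgeR. With no filter on low counts, 1 gene was called higher and 1 lower in T24, and 0 were higher in TCC-SUP. A line counted as paired by replicate number if the correlation of deviations was above 0.1 for every replicate, and none did. The correlations were 0.25, -0.08 and 0.26 for T24 and 0.17, 0.07 and 0.20 for 5637. They were 0.10, -0.01 and -0.07 for TCC-SUP and 0.30, 0.17 and 0.08 for CLS-439. These values do not settle whether the libraries were paired. The replicate block called 1 gene lower in T24, ABCC1 (-0.76, adjusted p = 0.0304), against 0 without it, ended the POR call in 5637 (adjusted p = 0.058), and gave a call for CYB5R3 in 5637 (adjusted p = 0.0288) and for ABCC2 among lines (adjusted p = 0.0371). It changed no other call of the 10 responses or of the tests among lines. Without the CLS-439 libraries 0 genes were called higher in TCC-SUP and 0 among lines. With the line alone, 0 were called higher in TCC-SUP and 1 was called lower in CLS-439, POR (-0.36, adjusted p = 0.0465).

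Over the fits that leave out a replicate, the genes called higher numbered 0 to 4 in T24, 0 to 3 in 5637, 0 to 1 in TCC-SUP and 0 to 1 in CLS-439, those called lower 0 to 1, 0 to 4, 0 to 2 and 0, those between untreated T24 and 5637 5 to 7 and those among lines 0 to 4. Without replicate 1 of every group, T24 had 4 higher and 1 lower and 5637 had 3 higher and 4 lower. Without replicate 4 of every group, which leaves 2 libraries each, 0 of the 10 genes were called in any response, and over all genes 820 were called higher in T24, against 3162 with all libraries. Changes near 0 changed sign: ABCG2 in 5637 (-0.13 to 0.16, and -0.0015 with no filter), ABCG2 in CLS-439 (-0.17 to 0.15, -0.0041 with no filter and -0.0017 with the replicate block), NQO2 in TCC-SUP (-0.16 to 0.13) and in CLS-439 (-0.11 to 0.0046), XDH in T24 (-0.17 to 0.40) and in TCC-SUP (-0.72 to 0.36), and ABCC1 between untreated 5637 and CLS-439 (-0.074 to 0.052). The cause was not tested.

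With the longest transcript as length, median FPKM was 126 for NQO1, 68.4 for CYB5R3, 29 for POR, 20.4 for ABCC1, 9.40 for CYB5R1, 2.55 for NQO2, 1.10 for ABCB1 and 0.251 for ABCC2, so that POR stood above ABCC1. Depth limits ABCB1 in 5637, XDH in CLS-439 and ABCC2 in T24, which rest on few reads.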
